A study of Mus musculus with 21 samples.

Results

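AP-1 is a family of transcription factors that bind DNA as dimers, and the 10 genes described here are the Jun members Jun, Junb and Jund, the Fos members Fos, Fosb, Fosl1 and Fosl2, the Batf members Batf and Batf3, and Atf3. They were taken by symbol from the 55487 genes counted in 21 RNA-seq libraries of mouse spleen T cells. There were 5 libraries from wild-type mice (WT) and 5 from mice of genotype Tet2-/-Tet3flx/flxCD4cre (DKO). Tet2 and Tet3 encode dioxygenases that oxidise 5-methylcytosine. In the DKO mice Tet2 is deleted in all cells, and Tet3 is deleted where the Cd4 promoter has driven Cre, which in spleen means T cells. Cells of a 1st transplantation (TX1) gave 4 libraries, from recipients of DKO CD4 cells. A 2nd transplantation (TX2) gave 7 libraries, from recipients of cells that had already expanded in another recipient. The TX1 and TX2 cells carry the same alleles as the DKO cells, so no transferred wild-type cells are compared here. WT and DKO cells were sorted as CD4+CD25- TCRb+ cells that did not bind the CD1d tetramer, while transferred cells were sorted as CD45.2+CD45.1-, so the gate changed together with the transfer. WT libraries were all from males, DKO replicate 2, TX1 replicate 3 and TX2 replicates 5 to 7 were from females, and DKO replicates 4 and 5 are labelled young. The ages of the mice are not given in the sources used here.

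Jun proteins can pair with themselves or with Fos, Batf or Atf partners, whereas Fos proteins need a Jun partner. Fos, Fosb, Jun and Junb are immediate early genes, which are transcribed within minutes of T cell receptor or stress signals, while Jund is known for steadier expression. Batf and Batf3 lack the activation domain of Fos and, with Jun partners, bind composite sites with Irf4 or Irf8. Batf is known for its role in Th17 and follicular helper T cells, Batf3 for dendritic cells and for effector T cells, and Atf3 as a factor induced by stress.

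Each library held between 26918548 and 30730877 reads in genes. T cell receptor clonotypes tied some libraries to each other: TX2 replicates 1 to 4 shared 1 dominant clone, at 95.1% to 95.7% of their TRA reads, and TX1 replicate 3 shared another with TX2 replicates 5 to 7, at 83.2% to 88.1%. The other TX1 libraries each had a clone of their own, so the 11 transferred libraries hold 5 dominant clones. DKO replicate 2 was also mostly 1 clone, at 77.9% of TRA reads against 3.86% to 12.5% in the other DKO libraries, and it had the highest Batf, Fos, Fosb and Junb of the DKO group. Cd4 mRNA was low in most transferred libraries, which are labelled as former CD4 cells. Cd4 was at 1448 CPM (counts scaled to a common library total) or more in WT and at 1003, 0.353, 27.2 and 0.135 CPM in the TX1 libraries, and at 0.633 to 2.26 CPM in TX2. Tet3, counted over the whole gene, averaged 195 CPM in WT and 94.4 in DKO, and Tet2 averaged 43.3 and 47.3 CPM, which does not check a deletion of part of a gene. The p-values below measure the spread between libraries, part of which may be technical, and libraries that share a clone share a source. Such libraries count separately in the main fits and in fits of TX2 replicates 1 to 4 or 5 to 7 alone. Those p-values therefore do not speak of clones in general.

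In WT cells Junb was the most abundant member per length, at an RPKM of 593 ± 217 (SD, n = 5), where RPKM is the CPM divided by the exon length in kb. Jund followed at an RPKM of 109 ± 22 and Fos at 98.9 ± 34.4, which lie within each other's spread. Jun, at 65.7 ± 23.7, was within the spread of Fos. Batf, at 19.7 ± 5.64, and Fosb, at 7.59 ± 2.91, each lay outside the SD of the member before. Fosl2 was at an RPKM of 1.26 ± 0.152. Atf3, at 0.121, Batf3, at 0.0595, and Fosl1, at 0.00721, were close to the floor of the assay. In DKO cells the order was Junb at 588, Fos at 169, Jund at 124, Batf at 62.1 and Jun at 49.2 RPKM, so Batf stood above Jun there, with an SD of 21.5 against 37.3. In TX2 cells Jund was at 123 ± 12.5 and Junb at 103 ± 69.4 RPKM. In TX2 replicates 1 to 4 Jund (114 to 143 RPKM) lay above Junb (45.1 to 60.2 RPKM), while Junb was the higher of the 2 in replicates 5 and 6.

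The Jund and Fosl1 levels are underestimates. Jund overlaps Gm11175 on the opposite strand and Fosl1 overlaps Ccdc85b, and the unstranded counts set aside reads that fall on 2 genes. Over all libraries the separate strand columns together held 409860 Jund reads against 119739 in the column used here, a ratio of 3.42, and 1607 Fosl1 reads against 217, a ratio of 7.41. Jun, which overlaps Junos, had a ratio of 1.09, and the other 7 members had a ratio of 1.00. Strand columns of an unstranded library can also take in the neighbour's reads, so neither total is free of error. With both strand columns summed, Jund stood clear of Fos, at an RPKM of 338 ± 68.9 against 93.3 ± 32.6 in WT, and the order of Fos and Jund given for DKO was turned, at 159 ± 90.3 for Fos and 405 ± 94.4 for Jund. In TX2 Jund was then at 385 ± 34.2 and Junb at 95.8 ± 64.4 RPKM.

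**Figure D1:**
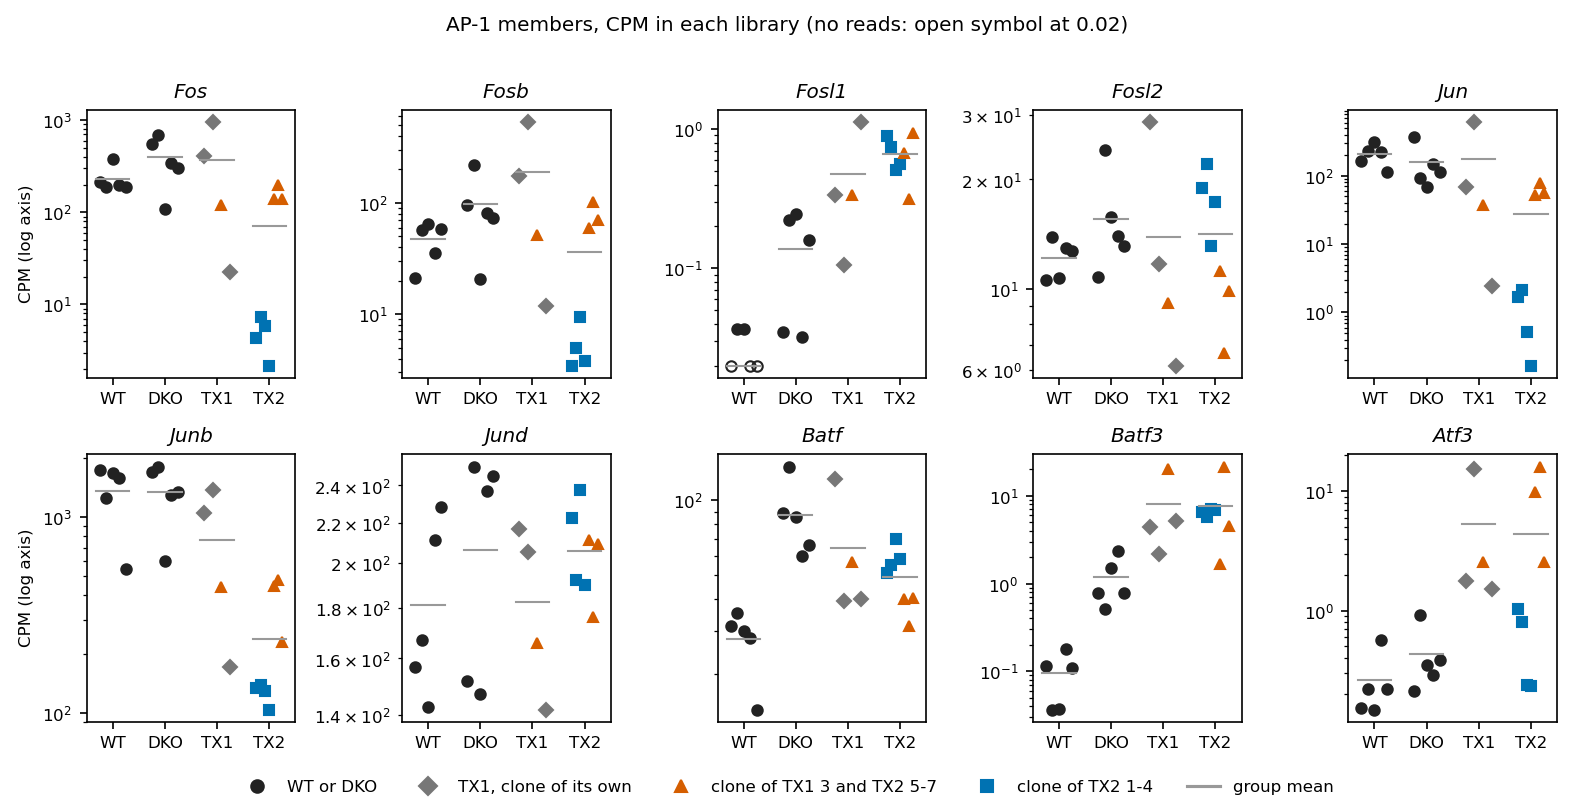
CPM (log axis) of each AP-1 member in every library, by group, with the group mean as a grey line and a library without reads as an open symbol at 0.02. Squares mark the clone of TX2 replicates 1 to 4 and triangles the clone of TX1 replicate 3 and TX2 replicates 5 to 7; the squares lie below every other library for Fos, Fosb and Jun, while Jund stays between 142 and 251 CPM in all 21 libraries.

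The members differed widely in how much they varied among the 21 libraries. Jund had a highest level 1.77 times its lowest, and Fosl2 4.66 times. Batf spanned 9.47-fold and Junb 17.5-fold. Fosb spanned 153-fold, Fos 436-fold and Jun 3614-fold. As a description over 21 libraries that include shared clones, log2 CPM of Fos had a Pearson r of 0.96 with Jun, 0.93 with Fosb and 0.90 with Junb. Fos had an r of -0.02 with Jund and -0.01 with Batf.

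The promoters of the 4 members that varied together are shown with the letters of the cAMP-response-element type that they hold. Factors that bind such elements are known to act on immediate early genes. The sequences are from RefSeq on GRCm38.p6, which held 9 of the 10 members, Fosl1 being the other one, and each is written 5′ to 3′ along the gene's own strand. The Fos window is chr12:85473740-85473889 on the plus strand, the Fosb window chr7:19310052-19310201, the Jun window chr4:95052223-95052372 and the Junb window chr8:84978749-84978898, all 3 of these on the minus strand. The windows end 1 base before the annotated start, or 7 bases before it for Fosb, and overlap no annotated exon. Capitals mark TGACG, the core of a cAMP response element (CRE), TGACNTCA, the full element with a free middle letter, and TATAAA, the TATA box.
Fos: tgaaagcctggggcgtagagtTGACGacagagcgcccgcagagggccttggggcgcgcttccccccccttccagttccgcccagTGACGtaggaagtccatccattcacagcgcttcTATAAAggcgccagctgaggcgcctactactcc
Fosb: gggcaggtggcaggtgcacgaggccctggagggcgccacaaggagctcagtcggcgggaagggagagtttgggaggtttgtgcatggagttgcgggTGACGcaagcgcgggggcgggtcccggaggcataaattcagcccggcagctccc
Jun: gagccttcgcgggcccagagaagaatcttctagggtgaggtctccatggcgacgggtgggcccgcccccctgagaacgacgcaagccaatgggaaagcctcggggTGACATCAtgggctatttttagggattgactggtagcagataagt
Junb: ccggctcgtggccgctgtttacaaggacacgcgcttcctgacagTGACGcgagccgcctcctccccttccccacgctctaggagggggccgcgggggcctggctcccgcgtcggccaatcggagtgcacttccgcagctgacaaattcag

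Within the 250 bases before each start, searched on both strands, TGACG lay in 5 of the 9 members (Fos, Fosb, Junb, Batf and Atf3) and in 17.8% of 32851 RefSeq promoters. In Fos it began 129 and 66 bases before the start, in Fosb 60, in Junb 106 and in Batf 98, and in Atf3 it lay 7 bases before the start on the other strand. TGACG thus did not set apart the 4 members that varied together, since Jun lacked it. Batf and Atf3, which held it, had an r with Fos of -0.01 and 0.17. TGACNTCA lay only in Jun among these 9, 45 bases before the start, and in 7.49% of all promoters. TATAAA lay in Fos, 33 bases before the start, and in 12.4% of all promoters. The AP-1 site TGANTCA lay in none of the 9 windows and in 6.75% of all promoters, and the CArG box, the site of serum response factor, in none and in 1.47%. Bases further upstream than 250 were not searched, so these genes may hold such sites outside the windows. TGACNTCA and TGACG overlap only where the free letter is G. The RefSeq start lies 34706 bases from the GENCODE gene start for Atf3, 1210 for Jund, 671 for Fosl2 and 567 for Batf3, and within 51 bases of it for the other 5, so for these 4 genes the window is not beside the gene start given by the GENCODE positions. The motifs were chosen after the sequences were seen, and a match is a description of letters only.

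**Figure D2:**
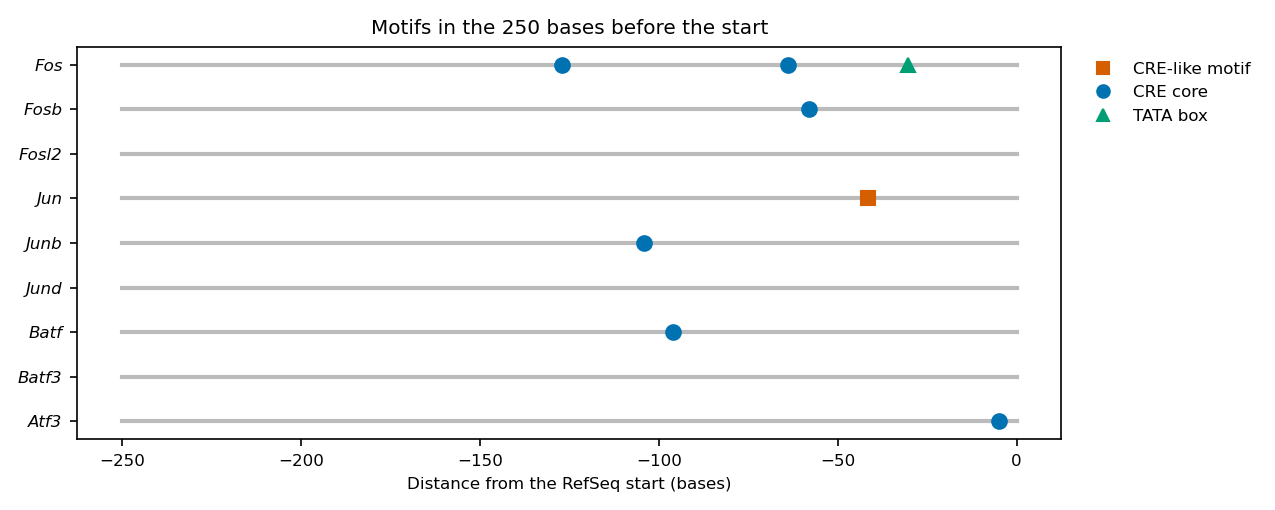
Motif matches in the 250 bases before the RefSeq start of the 9 members with an entry; the horizontal axis is the distance from the start in bases, circles are TGACG, the square is TGACNTCA and the triangle is TATAAA. Fos holds 2 TGACG matches and the TATA box, and Fosl2, Jund and Batf3 hold none of these motifs.

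The comparison of DKO with WT addresses the effect of the Tet2 and Tet3 deletions in CD4 T cells. Batf and Batf3 rose, and the other 6 members tested did not pass the threshold, an adjusted p of 0.05 (edgeR's quasi-likelihood test, Benjamini-Hochberg over all genes tested). Of all 13700 genes tested, 43.4% were called, 22.7% higher and 20.7% lower, so 2 called members of 8 is below the background share. Batf was at 31.2, 35.4, 29.7, 27.9 and 14.4 CPM in the WT libraries and at 88.9, 137, 85.4, 59.8 and 66.0 CPM in the DKO libraries. Every DKO library stood above every WT library. The log2 fold change was 1.66 ± 0.26 (SE), with an adjusted p of 0.000587 in edgeR's quasi-likelihood test, and 1.45 (adjusted p = 0.000488) without DKO replicate 2. In bulk RNA, more cells of a type and more RNA per cell cannot be told apart.

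Batf3 was at the edge of detection in WT, with 13 reads over the 5 libraries, and at 0.774, 0.515, 1.5, 2.35 and 0.773 CPM in DKO, with 176 reads. The groups did not overlap. The ratio of reads was 12.9, with an exact counting interval at 95% of 7.36 to 24.7, and the fitted log2 fold change was 3.57 ± 0.55 (edgeR, adjusted p = 0.000529). Batf3 is also expressed by dendritic cells, whose 6 markers summed to 1.66 to 8.73 CPM in WT and 5.87 to 21.2 CPM in DKO. Of the 4 dendritic cell markers tested 2 rose. Xcr1 and Clec9a both mark the dendritic cells that need Batf3: Xcr1 was at 0.278 ± 0.123 CPM in WT and 2.18 ± 0.855 CPM in DKO, and Clec9a was at 0 to 7 reads a library in WT and 0 to 4 in DKO, with none in WT replicate 1 and DKO replicates 1 to 3. The part of other cells in the Batf3 difference was not tested.

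The Fos and Jun members overlapped between DKO and WT. Fos was at 211, 189, 376, 199 and 188 CPM in WT and at 549.9, 690.1, 108, 344 and 299 CPM in DKO. DKO replicate 3 lay below all WT libraries and DKO replicates 1 and 2 above all of them. The log2 fold change of Fos was 0.77 ± 0.40, with an adjusted p of 0.141 in edgeR, and without DKO replicate 3 it was 1.02 with an adjusted p of 0.0183. The log2 fold change of Fosb was 1.04 ± 0.50 (edgeR, adjusted p = 0.113) with all libraries, and it was 1.31 (adjusted p = 0.022) without DKO replicate 3. Jun had a log2 fold change of -0.42 ± 0.42 (edgeR, adjusted p = 0.446), and without DKO replicate 1 it was -0.99 (adjusted p = 0.0243). Junb differed by -0.01 ± 0.33, Jund by 0.19 ± 0.19 and Fosl2 by 0.35 ± 0.20. Fosl1 and Atf3 were too low to be tested: Fosl1 had 2 reads in WT and 20 in DKO, but stood in the opposite order with both strand columns summed, at 1.15 ± 0.265 CPM in WT and 0.688 ± 0.221 CPM in DKO. Atf3 ranged from 0.147 to 0.57 CPM in WT and from 0.211 to 0.920 CPM in DKO.

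Around the members, 9 immediate early genes outside the family rose and none fell of 22 tested in DKO, with a median log2 fold change of 0.30 against -0.01 over all genes. The counts of this paragraph stand beside 43.4% of all genes called, 22.7% higher and 20.7% lower. Nr4a2, an orphan nuclear receptor induced by T cell receptor signals, rose by 3.51 ± 0.49 on the log2 scale (edgeR, adjusted p = 0.000298) and Gadd45b, a stress-signal regulator, by 1.85 ± 0.28. Irf4, which binds DNA together with Batf, rose by 2.55 ± 0.27 (edgeR, adjusted p = 6.74e-05), from 23.1 to 39.0 CPM in WT to 101 to 257 CPM in DKO, and among 12 partners of AP-1 on DNA 2 rose and 3 fell. Of 25 other Jun, Fos, Batf and Atf relatives 8 rose and 4 fell, among them Jdp2, a repressor that pairs with Jun, which rose by 2.33 ± 0.37, and Maf, a driver of T cell cytokine genes, which rose by 2.16 ± 0.38. Of 22 kinases and other factors upstream of AP-1, 3 rose and 7 fell. Map3k8 rose by 1.91 ± 0.27, and Rasgrp1, which couples the T cell receptor to Ras, fell by 1.22 with an SE of 0.20. Of 25 genes known as AP-1 targets 11 rose and 2 fell, with a median log2 fold change of 1.06. Summed neutrophil markers were 3.83 to 172 CPM in DKO and 0.0763 to 65.4 CPM in WT, and their part in these counts was not tested.

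**Figure D3:**
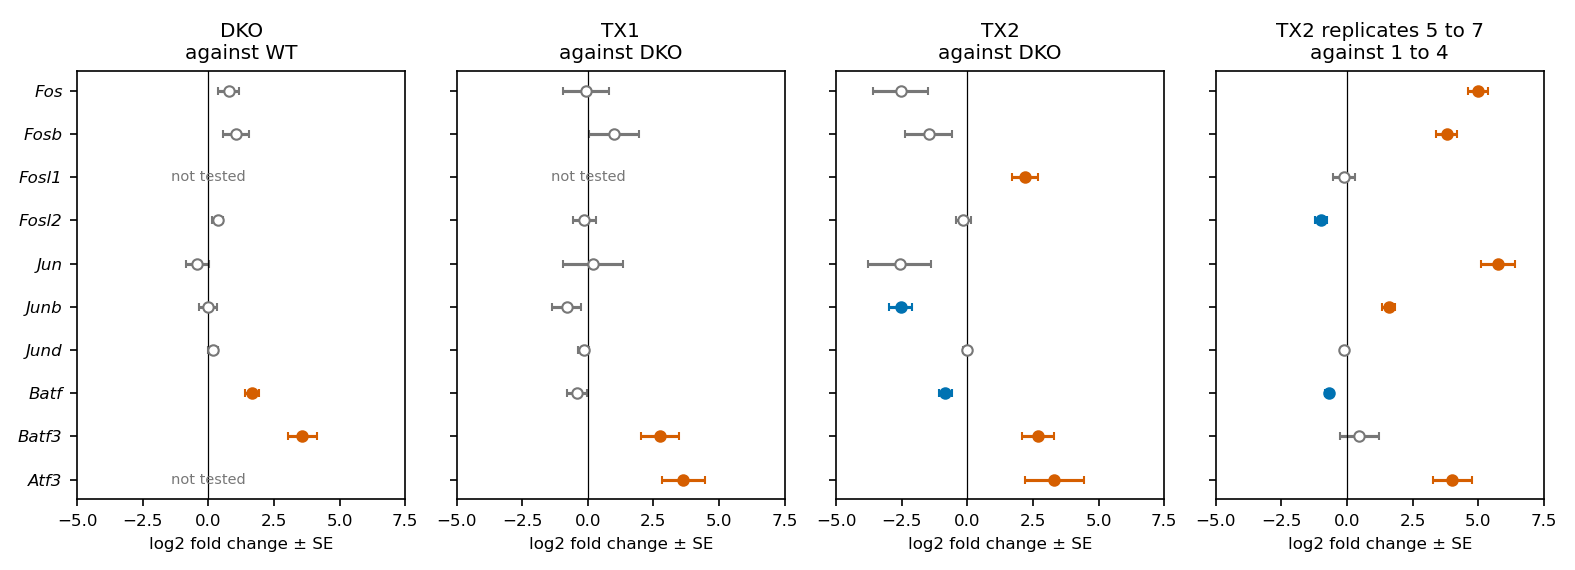
log2 fold change with its SE (horizontal axis) for each AP-1 member (rows) in 4 comparisons, with genes that passed the adjusted p of 0.05 as filled orange (higher) or blue (lower) points and the others as open grey points. Batf and Batf3 lie right of 0 in DKO against WT, Junb and Batf lie left of 0 in TX2 against DKO, and Jun reaches 5.77 between the clones of TX2.

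The comparison of TX1 with DKO asks how the cells differ after expansion in a recipient. Batf3 and Atf3 rose, 2 of the 9 members tested, against a background of 19.7% of 13954 genes called, 11.7% higher and 7.97% lower, which is a share near the background. Atf3 was at 1.77, 15.5, 2.58 and 1.52 CPM in the TX1 libraries, all above the highest DKO library at 0.920 CPM. Its log2 fold change was 3.64 ± 0.82 (edgeR, adjusted p = 0.0179). Batf3 was at 4.35, 2.19, 20.2 and 5.17 CPM in TX1, and TX1 replicate 2 lay below DKO replicate 4 at 2.35 CPM. Its log2 fold change was 2.75 ± 0.71 (edgeR, adjusted p = 0.0284). Other genes moved with both members. Xcr1 rose by 2.45 ± 0.45 (edgeR, adjusted p = 0.00978), but of 3 dendritic cell markers tested 1 rose and 1 fell. Clec9a and Siglech, another such marker, had no reads in any TX1 library or in DKO replicates 1 to 3. The summed dendritic cell markers overlapped between TX1 and DKO. Of 8 T cell markers 4 fell (summed 2923 to 4630 CPM in TX1 against 5337 to 6908 in DKO). The heat shock genes summed to 6731 to 13165 CPM in TX1 against 4728 to 5641 in DKO. Of the 12 tested 4 rose and 1 fell. Hsp90ab1 alone averaged 5897 CPM in TX1 and 2412 CPM in DKO. The part of other cells or of stress in the Batf3 and Atf3 differences was not tested.

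Both calls depended on single libraries. Batf3 had an adjusted p of 0.0578 to 0.0805 when DKO replicate 1, 3 or 5 or TX1 replicate 3 was left out, and Atf3 of 0.0515 to 0.0519 without DKO replicate 4 or 5. With a block for the replicate number neither passed, at an adjusted p of 0.0762 for Batf3 and 0.0519 for Atf3. The labels name no batch, but an earlier look at these data split the libraries into rounds, with replicates 1 to 3 of WT, DKO and TX1 in the 1st and all others in the 2nd. Within the 1st round Batf3 differed by 3.27 (adjusted p = 0.186) and Atf3 by 3.75 (adjusted p = 0.184), and the 2nd round has 1 TX1 library.

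The Fos and Jun members spread further in TX1 than in DKO. Fos was at 406, 944, 119 and 22.7 CPM in the TX1 libraries, so that TX1 replicate 2 lay above every DKO library and TX1 replicate 4 below every one. Jun was at 67.6, 602, 37.3 and 2.47 CPM, with replicate 2 highest and replicate 4 lowest again. Junb was at 1049.6, 1385, 442 and 172 CPM. The log2 fold changes were -0.07 ± 0.89 for Fos, 0.19 ± 1.15 for Jun and -0.81 ± 0.56 for Junb, none past the threshold. TX1 replicate 2 also had Hspa1a at 122 CPM and Hspa1b at 484 CPM, heat shock genes that were at 35.1 and 153 CPM or lower in the other 20 libraries. All 12 listed heat shock genes together summed to 6731, 11561, 10490 and 13165 CPM in TX1 replicates 1 to 4. The highest sum was thus in replicate 4, where Fos and Jun were lowest. The part of a stress response in the Fos and Jun levels of TX1 replicate 2 was not tested. Batf was at 122, 39.5, 56.8 and 40.0 CPM in TX1, a log2 fold change of -0.41 ± 0.38 from DKO, and Irf4 was at 447 CPM in TX1 replicate 1, where Batf was highest, and at 51.5 to 71.5 CPM in the other 3.

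Of 22 immediate early genes outside the family 3 rose and none fell in TX1 against DKO: Myc, by 1.74 ± 0.30, Egr3, by 0.93 ± 0.18, and Klf10, by 0.68 ± 0.15. Over all genes 11.7% were called higher and 7.97% lower. The repressor Jdp2 fell by 2.59 on the log2 scale with an SE of 0.67 (edgeR, adjusted p = 0.0278) and was the called gene both of 25 relatives and of 18 inhibitors. Of 12 partners on DNA, Ets1 and Ikzf1 fell and none rose. Of 28 known AP-1 targets 5 rose and 6 fell. Il2ra, the interleukin 2 receptor alpha chain, rose by 2.23 ± 0.62, and WT and DKO cells had been sorted against its product CD25. The chemokine genes Ccl3 and Ccl4 fell by 4.08 and 4.96. All 6 neutrophil markers tested fell as well, from a sum of 3.83 to 172 CPM in DKO to 0 to 1.27 CPM in TX1.

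The comparison of TX2 with DKO uses the same DKO libraries as the one above, so the results are not independent of each other. Of 10 members Fosl1, Batf3 and Atf3 rose and Junb and Batf fell, against 51.7% of 14034 genes called, 25.6% higher and 26.1% lower, so the share of members called was near the background. Junb was at 133, 138, 129, 104, 445, 481 and 231 CPM in the 7 TX2 libraries and at 601 to 1817 CPM in DKO, with no overlap. Its log2 fold change was -2.55 ± 0.43 (edgeR, adjusted p = 0.000485), and it was -3.44 with TX2 replicates 1 to 4 alone and -1.80 with replicates 5 to 7 alone, both past the threshold. Batf was at 51.1, 54.8, 70.1, 57.9, 40.0, 31.3 and 40.5 CPM in TX2, against 59.8 CPM or more in DKO, with TX2 replicate 3 inside the DKO range. It fell by 0.84 on the log2 scale with an SE of 0.23 (edgeR, adjusted p = 0.0105).

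Batf3 was at 6.46, 5.79, 7.14, 6.86, 1.69, 21.5 and 4.57 CPM in TX2, and replicate 5 was the one library inside the DKO range. Its log2 fold change was 2.68 ± 0.61 (edgeR, adjusted p = 0.00317). Atf3 was at 1.03, 0.807, 0.239 and 0.233 CPM in TX2 replicates 1 to 4 and at 9.92, 16.1 and 2.54 CPM in replicates 5 to 7, so its difference from DKO, 3.31 ± 1.13 (edgeR, adjusted p = 0.027), was 0.41 (adjusted p = 0.563) with replicates 1 to 4 alone and 4.48 (adjusted p = 0.000771) with replicates 5 to 7 alone. Leaving out DKO replicate 1, 3, 4 or 5 or TX2 replicate 6 also ended the Atf3 call, at an adjusted p of 0.0536 to 0.0632. Fosl1 was at 0.315 to 0.934 CPM in TX2, above the highest DKO library at 0.244 CPM, a log2 fold change of 2.21 ± 0.49 (edgeR, adjusted p = 0.00278), from 139 and 20 reads. The 2nd round alone keeps DKO replicates 4 and 5, which are also the DKO libraries labelled young. Round and that label therefore cannot be told apart within DKO. In edgeR within that round Junb (-2.53, adjusted p = 0.00898) and Fosl1 (2.69, adjusted p = 0.0209) passed, Fosl1 with 1 and 5 reads in these DKO libraries. Batf (-0.38, adjusted p = 0.348), Batf3 (2.27, adjusted p = 0.0987) and Atf3 (3.63, adjusted p = 0.195) did not pass.

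Fos and Jun did not pass the threshold over the 7 TX2 libraries, at log2 fold changes of -2.54 ± 1.06 (edgeR, adjusted p = 0.0624) and -2.58 ± 1.19 (adjusted p = 0.0881). With TX2 replicates 1 to 4 alone Fos fell by 6.36 on the log2 scale (adjusted p = 4.94e-05), Fosb by 4.18 (adjusted p = 0.000579) and Jun by 7.15 (adjusted p = 9.15e-05). With replicates 5 to 7 alone the values were -1.32 (adjusted p = 0.0578), -0.32 (adjusted p = 0.67) and -1.33 (adjusted p = 0.0651). Each of these sets of TX2 libraries is 1 clone, so its p-values measure the spread between libraries of that clone and DKO libraries. Jund differed by -0.03 ± 0.15 and Fosl2 by -0.15 ± 0.29.

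Of 22 immediate early genes outside the family 13 fell and 3 rose in TX2 against DKO, with a median log2 fold change of -0.88 against -0.01 over all genes. Over all genes 25.6% were called higher and 26.1% lower. Socs3, a feedback inhibitor of cytokine signalling, fell by 4.94 with an SE of 0.53, and Ppp1r15a, a stress-induced phosphatase subunit, fell by 2.82 with an SE of 0.61. Of 18 genes for inhibitors and turnover of AP-1, 6 fell and 3 rose. They included Tsc22d3, the glucocorticoid-induced leucine zipper that binds Fos and Jun, which fell by 4.17 with an SE of 0.50, and Bach2, a repressor at AP-1 sites, which fell by 1.56 with an SE of 0.21. Of 22 upstream kinases and factors 10 fell and 2 rose, and of 12 partners on DNA 5 fell and 1 rose, Irf4 falling by 1.01 and Smad3 rising by 1.5. Of 27 known AP-1 targets 6 rose and 9 fell. Il21 was close to 0 in TX2, at a mean of 0.00460 CPM against 79.2 ± 125 CPM (SD, n = 5) in DKO. Heat shock genes moved the other way, with 7 of 12 higher and 3 lower, at a median of 0.92.

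Between TX2 and TX1 none of the 10 members passed the threshold in edgeR, where 0.0431% of 13907 genes did, 0.0216% in each direction. Junb had the smallest p among them, at 0.0141 unadjusted and 0.146 adjusted, with a log2 fold change of -1.70 ± 0.58, and it was the 1 member with an unadjusted p under 0.05. DESeq2 called 1 member, also Junb. Without TX1 replicate 4, Junb had a value of -2.04 (edgeR, adjusted p = 0.0442). TX1 replicate 4 is the only TX1 library of the 2nd round, which holds all TX2 libraries. Without it, group and round cannot be told apart. Within the 2nd round the values were 0.51 for Junb, 1.66 for Fos, 1.64 for Fosb and 3.49 for Jun. Junb differed by -2.58 (edgeR, adjusted p = 0.0289) with TX2 replicates 1 to 4 alone. With replicates 5 to 7 alone it differed by -0.998 (adjusted p = 0.404). Over all TX1 and TX2 libraries Fos (-2.42 ± 1.28), Jun (-2.71 ± 1.55) and Batf3 (-0.04 ± 0.69) had wide errors. Jund (0.16 ± 0.14) and Batf (-0.41 ± 0.34) had narrower ones.

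Against WT, whose libraries also serve the DKO comparison, the transferred cells gave the following values. In TX1 Batf (1.23 ± 0.37), Batf3 (6.34 ± 0.78) and Atf3 (4.33 ± 0.82) rose, 3 of 9 members, where 48.1% of 13748 genes were called, 26.1% higher and 22.1% lower, a smaller share than the background. The Batf call was lost within the 1st round (1.21, adjusted p = 0.0713) and with a block for the replicate number (0.90, adjusted p = 0.076). In TX2 Fosl1, Batf, Batf3 and Atf3 rose and Jun and Junb fell, 6 of 10 members, where 66.2% of 14001 genes were called, 33.4% higher and 32.8% lower, a share near the background. Batf rose by 0.81 ± 0.24 (edgeR, adjusted p = 0.00925) in TX2 against WT, although it fell against DKO. Neither clone kept both calls: the difference from WT was 0.42 (adjusted p = 0.156) with TX2 replicates 5 to 7 alone, and that from DKO was -0.58 (adjusted p = 0.0515) with replicates 1 to 4 alone. Junb fell by 2.56 with an SE of 0.44 (edgeR, adjusted p = 0.000227) and Jun by 2.99 with an SE of 1.15 (adjusted p = 0.0352). The Jun call was lost without WT replicate 2, 3 or 4 or TX2 replicate 1 or 2, at an adjusted p of 0.0503 to 0.0679, and within the 2nd round (-2.67, adjusted p = 0.2). Jun fell by 7.56 with TX2 replicates 1 to 4 alone and by 1.76 with replicates 5 to 7 alone. Atf3, which was at 0.233 to 1.03 CPM in TX2 replicates 1 to 4 and up to 0.57 CPM in WT, rose by 5.16 with replicates 5 to 7 alone and lost its call within the 2nd round (3.42, adjusted p = 0.173). Batf3 had 940 reads in TX1 and 1651 in TX2 against 13 in WT, which gave ratios of 85.9 (exact interval 50 to 162) and 82.5 (48.1 to 155.3). Fosl1 had 139 reads in TX2 against 2 in WT, a ratio of 45.2 with an exact interval of 12.3 to 376.6, which covers counting error only. With both strand columns summed, an alternative chosen after seeing the data, the Fosl1 log2 difference of TX2 from WT was 1.86 ± 0.21 in place of 5.10 ± 0.61.

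Among the TX2 libraries the members split by clone. Fos was at 4.27, 7.27, 5.81 and 2.16 CPM in TX2 replicates 1 to 4 and at 139, 196 and 139 CPM in replicates 5 to 7. Fosb was at 3.45, 4.94, 9.40 and 3.8 CPM against 59.1, 103 and 69.7 CPM. Jun was at 1.68, 2.12, 0.513 and 0.166 CPM, the last from 5 reads, against 52.1, 77.4 and 56.2 CPM. None of these ranges overlapped, and the 4 libraries of the first clone were the lowest of all 21 for all 3 genes. TX1 replicate 3, a library of the same clone as TX2 replicates 5 to 7, had Fos at 119, Fosb at 51.9, Jun at 37.3 and Junb at 442 CPM.

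Fitted across all genes, 5 members rose and 2 fell in TX2 replicates 5 to 7 against 1 to 4, where 44.6% of 13920 genes were called, 23.3% higher and 21.3% lower. Fos rose by 4.99 ± 0.39 on the log2 scale (edgeR, adjusted p = 0.000188) and Fosb by 3.8 ± 0.40 (adjusted p = 0.00053). Jun rose by 5.77 ± 0.65 (adjusted p = 0.000665) and Junb by 1.59 ± 0.24 (adjusted p = 0.00189). Atf3 rose by 4.02 ± 0.74 (adjusted p = 0.00411). Fosl2 fell by 0.98 with an SE of 0.22 (adjusted p = 0.00872), and Batf fell by 0.68 with an SE of 0.15 (adjusted p = 0.00769). Jund differed by -0.11 ± 0.12, Fosl1 by -0.11 ± 0.42 and Batf3 by 0.48 ± 0.73. Without TX2 replicate 6 the Batf3 value was -1.10 (adjusted p = 0.0493), in the opposite direction. This test compares 2 sets of libraries, each of 1 clone and 1 sex, so clone and sex cannot be told apart, and its p-values do not speak of clones in general.

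Markers of other cells moved with the split. In TX2 replicates 5 to 7 against 1 to 4 all 7 neutrophil markers rose, with a sum of 51.8 to 121 CPM against 0 to 0.572 CPM. Of the B cell markers 7 of 8 rose (990 to 1190 against 277 to 380 CPM), and of the macrophage or monocyte markers 7 of 9 rose (54.6 to 100 against 6.70 to 22.1 CPM). All 5 erythroid markers rose too (18.4 to 570 against 0.581 to 9.49 CPM), while 5 of 8 T cell markers fell (2238 to 3039 against 3904 to 4312 CPM). In TX1 replicate 3, of the same clone as TX2 replicates 5 to 7, all 7 neutrophil markers were at 0 reads, the macrophage sum was 4.40 CPM and the B cell sum was 701 CPM, between those of the TX2 clones. The part of other cells in the split was not tested. Leaving out any 1 of the 7 libraries left 7 or 8 members called.

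Of 22 immediate early genes outside the family, 11 rose and 6 fell between the clones, with a median of 0.59 against 0.02 over all genes. Over all genes 23.3% were called higher and 21.3% lower. Ppp1r15a was at 12, 13.9, 10.3 and 10.3 CPM in TX2 replicates 1 to 4 and at 63.7, 82.1 and 49.7 CPM in replicates 5 to 7, and it rose by 2.46 ± 0.19 on the log2 scale (edgeR, adjusted p = 0.000122). Dusp1, a phosphatase that switches off the kinases upstream of AP-1, rose by 2.43 ± 0.22, while Dusp6, which acts on ERK, fell by 2.33 with an SE of 0.24. Klf2, a factor of quiescent T cells, fell by 2.08 with an SE of 0.32. Rasgrp1 was at 15.3 to 99.0 CPM against 313 to 531 CPM and rose by 3.00 ± 0.71, among 22 upstream genes of which 2 rose and 6 fell. Of 12 heat shock genes 5 rose and none fell. Of 24 known AP-1 targets 7 rose and 7 fell, with a median of -0.02. Mmp9, a matrix protease gene, fell by 7.47 with an SE of 0.79 and Ccnd2, a D-type cyclin gene, fell by 2.66 with an SE of 0.20, both higher in the libraries where Fos and Jun were lowest.

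**Figure D4:**
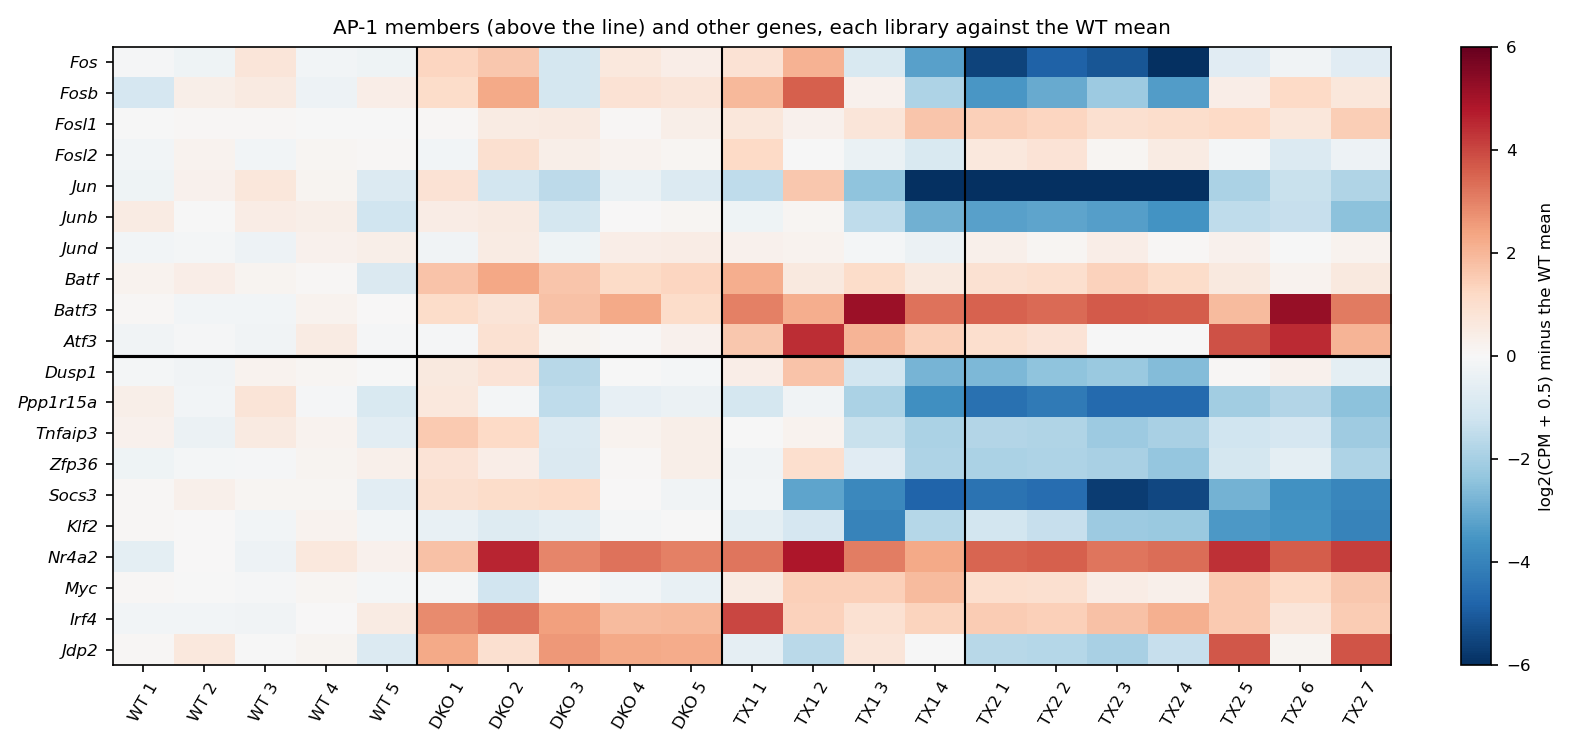
Heat map of log2(CPM + 0.5) minus the WT mean for the AP-1 members (above the line) and 10 other genes (below it) in each of 21 libraries, red for higher and blue for lower than WT. Fos, Fosb, Jun, Junb, Dusp1 and Ppp1r15a share their blue columns in TX1 replicate 4 and TX2 replicates 1 to 4, whereas Batf, Batf3 and Irf4 are red in most DKO and transferred libraries.

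The make-up of the AP-1 transcript pool differed between groups. The members summed to 508 to 1112 RPKM in WT, 483 to 1398 in DKO and 206 to 1437 in TX1. In TX2 the sum was 208 to 259 in replicates 1 to 4 and 348 to 483 in replicates 5 to 7. Junb made up 64.2% ± 10.6 (SD, n = 5) of that sum in WT, 57.9% ± 2.74 in DKO, 43.7% ± 6.11 in TX1 and 30.0% ± 9.61 in TX2. Jund made up 13.7% ± 7.65 in WT and 43.4% ± 14.3 (n = 7) in TX2, although its own level did not pass the threshold in any of the 7 comparisons. Batf made up 2.22% ± 0.460 in WT, 6.78% ± 3.37 in DKO, 8.78% ± 4.96 in TX1 and 13.0% ± 6.38 in TX2. In TX2 its share was 15.3% to 19.8% in replicates 1 to 4 and 4.61% to 8.27% in replicates 5 to 7, the latter within the DKO range of 4.44% to 12.6%. With both strand columns summed Jund held 32.3% in WT and 69.9% in TX2, and Junb 49.9% and 15.8%, so the size of each share depends on the reads set aside at Jund while the order of WT and TX2 did not. Batf then held 1.72% ± 0.301 in WT, 5.00% ± 2.13 in DKO, 5.29% ± 2.52 in TX1 and 6.11% ± 2.39 in TX2, so DKO, TX1 and TX2 lay within each other's spread. The level of Batf itself fell by 0.84 on the log2 scale in TX2 against DKO. No test was run on these shares.

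**Figure D5:**
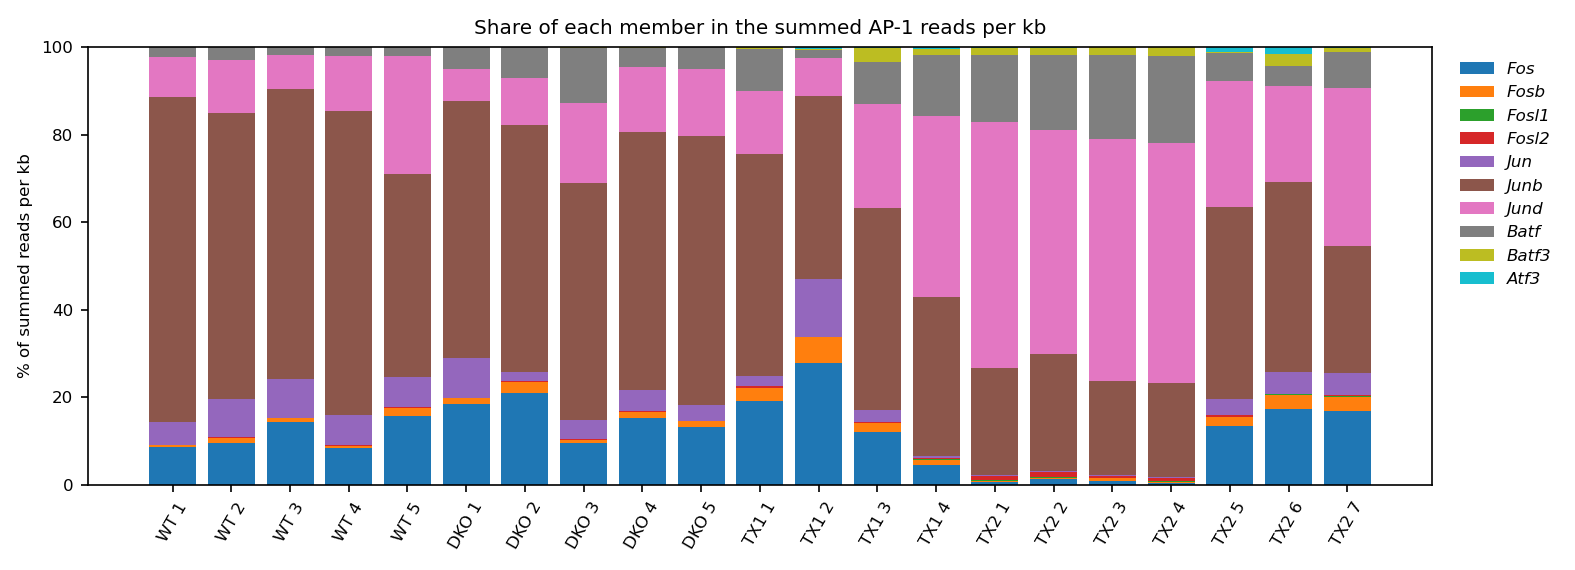
Share of each member in the summed AP-1 reads per kb (vertical axis, percent) in each of the 21 libraries, 1 bar a library. Junb is the tallest segment in every WT and DKO library, and Jund holds 51.1% to 56.2% in TX2 replicates 1 to 4.

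By Pearson's r of log2 CPM over the 21 libraries, among 9483 genes with a mean of at least 5 CPM, the genes most like each member were as follows. Ppp1r15a came closest to Junb (r = 0.98) and to Jun (0.95), and Dusp1 to Fos (0.93) and Fosb (0.93). Batf was most like Il3ra (0.93), an interleukin 3 receptor chain, and Batf3 most like Klrb1a (0.94), an NK-type receptor. Atf3 was most like Ivns1abp (0.89), Fosl2 most like Ccdc141 (0.86) and Fosl1 most like Smarcc1 (0.94), a chromatin remodelling subunit. Jund had the weakest best match, Ucp2 at 0.80. These are descriptions over libraries that share clones and groups.

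The members lie on 7 chromosomes in GRCm38, and 2 pairs are close neighbours. Batf3 (chr1:191097847-191108945, plus strand) and Atf3 (chr1:191170296-191218039, minus strand) are 61.4 kb apart, and Fos (chr12:85473890-85477273) and Batf (chr12:85686669-85709087) are 209 kb apart on the same strand. Over the 21 libraries the r of log2 CPM was -0.01 for Fos with Batf and 0.55 for Batf3 with Atf3. Jun is at chr4:95049034-95052222, Junb at chr8:84974484-84978718 and Jund at chr8:70698949-70700616. Fosb is at chr7:19302696-19310051, Fosl1 at chr19:5447547-5455946 and Fosl2 at chr5:32135801-32157842.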

How the data were processed

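Bulk RNA-seq of total RNA from sorted spleen T cells (21 libraries) was analysed from whole-number read counts per gene, deposited by the authors. Read trimming and alignment tools, per the submitters' processing notes, include STAR 2.7.5a and fastp 0.21.0; the same notes list DESeq2 and both GRCm38 and mm10 as builds, and their annotation release was not used here. The unstranded count column was used, since the larger strand share had a median of 0.507. Summary lines that name no gene (16.8% to 23.4% of reads) were left out. IDs were given symbols and positions from GENCODE M21 (55141 of 55487 genes). Clonotype tables, also read counts deposited by the authors, gave the dominant clones.

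Each pair of groups was fitted alone with edgeR 4.0.16 (R 4.3.3, limma 3.58.1; TMM, filterByExpr, robust quasi-likelihood F test), with Benjamini-Hochberg adjustment over all genes tested and a threshold of 0.05; the SE is the log2 fold change over the root of F. CPM used TMM factors of all 21 libraries, and reads per kb used the union of exons. DESeq2 1.42.0 and the other alternatives are in the closing section. The code was tested on simulated data. No libraries of a group were alike within sampling noise (lowest chi-square per gene 7.07). Of each gene list, up to 3 called genes with the largest change and a mean of at least 5 CPM were eligible to be named, and not all of those are; the values of other genes are given as context, chosen after their values were seen. Members, lists and rounds of libraries (replicates 1 to 3 of WT, DKO and TX1 against the rest, a split the labels do not name) were chosen with earlier results of these data known. Exact intervals at 95% cover counting error only.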

Additional observations from a re-analysis of the deposited data

Results flagged for a closer look

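Of 40 sets of libraries (each member in each group), 8 had 1 library far from the others of its group. Far means a large gap to the next library as a share of the range of the set. The limits used flag about 1 in 20 sets of normally distributed values. CPM need not be so distributed, and all 8 were the highest library of their set, so 8 of 40 cannot be set against that rate. Fos was at 376.1 CPM in WT replicate 3, against 187.8 to 210.8 CPM in the other WT libraries. Jun was at 363.2 CPM in DKO replicate 1, against 67.34 to 148.7 CPM, and at 601.7 CPM in TX1 replicate 2, against 2.469 to 67.59 CPM. Batf3 was at 20.16 CPM in TX1 replicate 3, against 2.188 to 5.175 CPM, and at 21.48 CPM in TX2 replicate 6, against 1.687 to 7.142 CPM. These 2 Batf3 libraries share a clone, with TX2 replicates 5 and 7 of the same clone at 1.69 and 4.57 CPM. Atf3 was at 0.5681 CPM in WT replicate 4, against 0.1472 to 0.2196 CPM, at 0.9199 CPM in DKO replicate 2, against 0.211 to 0.3864 CPM, and at 15.49 CPM in TX1 replicate 2, against 1.522 to 2.575 CPM. TX1 replicate 2 was thus alone for both Jun and Atf3, and it also had the highest Hspa1b, at 484 CPM. Its sum over the 12 listed heat shock genes, 11561 CPM, was below the 13165 CPM of TX1 replicate 4.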

How the results depend on the processing

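Over 1410 member values under alternatives, 1297 kept their direction and their side of the threshold or changed sign without a call (114, with fitted log2 sizes up to 2.71), 54 lost and 54 gained a call and 5 reversed. The reversals were Fosb (-2.71) and Jun (-5.74) in TX1 against DKO and Fos (-3.09) and Fosb (-1.99) in TX1 against WT, all within round 2, where TX1 replicate 4 stands alone and is assumed to vary like the other groups, and Batf3 between the TX2 clones without TX2 replicate 6 (-1.10, against up to 0.97 without other libraries); the cause was not tested. Counts of members called were as follows. TX1 against DKO gave 2, and 1 with DESeq2, with sex as a covariate and with males alone, 0 without the young DKO and within round 1, 3 with both strand columns summed and 9 within round 2. TX2 against DKO gave 5, and 2 within round 2 and with round as a covariate. TX2 against TX1 gave 0, and 1 with DESeq2 and in 1 fit of all groups, and 4 with males alone and with TX2 replicates 1 to 4 alone. TX1 against WT gave 3, and 8 within round 2. Leaving out each library gave 2 to 4 in DKO against WT, 0 to 3 in TX1 against DKO, 4 to 5 in TX2 against DKO, 0 to 1 in TX2 against TX1, 3 to 4 in TX1 against WT, 5 to 6 in TX2 against WT and 7 to 8 between the clones. Libraries of the same replicate number had correlations of deviations from -0.24 to 0.41, and from -0.06 to 0.41 in DKO against WT. These were not set against libraries of different numbers, so they cannot show whether the numbers pair the samples. With the replicate number as a block the counts were 2, 0, 7, 2, 2 and 7 in the 6 group comparisons in the order of the ranges above. TX2 then rests mostly on its replicates 1 to 4. Sex could not be fitted between the clones. DESeq2 moved the median of all genes there to 0.155, from 0.02. Of 40 mean shares of the AP-1 pool, 10 moved by over 1 SD when reads were not divided by length. Depth limits Fosl1, Batf3 and Atf3 in WT.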
